A study of Mus musculus with 6 samples.

Results

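The genes described here are those of the *Kcnq1ot1* and *Cdkn1c* imprinted domain on distal mouse chromosome 7, next to the *Igf2* locus. They were listed by name and matched by symbol to Ensembl gene identifiers, and all 10 were found among the 55401 genes of the count table. RNA-seq was performed on whole mouse embryos at E10.5 in 2 genotypes. WT embryos carried the unmodified *Igf2* locus, and 5C embryos carried an array of 5 tandem copies of *Mir483*, the microRNA gene in an *Igf2* intron, at that endogenous locus. Per the study's methods the array was built in embryonic stem cells by cassette exchange and passed on by chimeric males, both genotypes were male littermates, and each of the 3 libraries per genotype was a pool of 2 embryos. No treatment was given to either genotype. The comparison asks whether genes of the neighbouring imprinted domain changed when *Mir483* was in excess.

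Imprinted genes are expressed mainly from the allele of 1 parent. In this domain the control region lies in an intron of *Kcnq1* and is methylated on the maternal chromosome. On the paternal chromosome it is the promoter of *Kcnq1ot1*, a long, unspliced, nuclear RNA transcribed antisense to *Kcnq1*, which silences neighbouring genes in cis. *Cdkn1c*, *Phlda2*, *Slc22a18*, *Ascl2* and *Kcnq1* are known as genes expressed from the maternal allele, whereas *Cd81*, *Tssc4*, *Nap1l4* and *Osbpl5* are known as outer genes whose imprinting is mostly seen in the placenta. The counts sum both alleles, so that a parental shift with no change in the sum would not be seen.

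The sequences below are the mature arms of the microRNA that the 5C array carries, from RefSeq, with the seed (bases 2 to 8) in capitals. The arms do not share a seed. In GRCm38 the hairpin lies at chr7:142654924-142654996 on the minus strand.
miR-483-3p: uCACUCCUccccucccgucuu
miR-483-5p: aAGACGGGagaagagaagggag

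A 3′ UTR complement of the miR-483-3p seed (AGGAGTG, transcript strand) was present in 12.4% of 13900 genes tested that have an annotated 3′ UTR, and the miR-483-5p complement (CCCGTCT) in 3.44%. Of the 9 coding genes of the domain, *Osbpl5* was the only gene whose longest annotated coding transcript held either complement in its 3′ UTR, and the other 8 had 0 matches. The searched 3′ UTRs ran from 53 bases in *Slc22a18* to 1089 bases in *Nap1l4*. The *Osbpl5* match began at base 635 of the UTR, within chr7:143689168-143689194 on the minus strand of GRCm38. The whole *Kcnq1ot1* transcript of 93092 bases held 9 matches to the miR-483-3p complement, or 0.0967 per kb, and 1 to the miR-483-5p complement. The *Osbpl5* window is shown because it is the single UTR match, beside the *Kcnq1ot1* windows nearest the transcript start for each arm (chr7:143294407-143294433 and chr7:143253457-143253483, minus strand), with the matching bases in capitals. A match is a run of letters and not a measured target.
Osbpl5, miR-483-3p: cctgtgccacAGGAGTGccctggccaa
Kcnq1ot1, miR-483-3p: taaaatggggAGGAGTGctttccgctg
Kcnq1ot1, miR-483-5p: aatcaatttcCCCGTCTtggtggattt

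RefSeq promoters (GRCm38.p6) were found for 7 of the 10 genes, namely *Kcnq1ot1*, *Phlda2*, *Slc22a18*, *Ascl2*, *Cd81*, *Tssc4* and *Osbpl5*, but not for *Cdkn1c*, *Kcnq1* and *Nap1l4*. The 250 bases before each start were searched on both strands for CCAAT and for TATAAA, which do not overlap each other. The first motif was present in 34.5% of 27025 promoters, and 3 or more copies were present in 2.98%. *Kcnq1ot1* and *Ascl2* each held 3 copies, and *Phlda2*, *Tssc4* and *Osbpl5* held 1. The other motif, present in 13% of promoters, was found in *Phlda2* only among these 7 genes. All 250 bases searched for *Phlda2* lie within annotated exons of that gene. The sequences of *Kcnq1ot1* (chr7:143296550-143296797) and *Ascl2* (chr7:142969265-142969514), both minus strand, are shown because they share the CCAAT count while their RNA levels lay at opposite ends of the domain in total reads. Capitals mark CCAAT, or its complement ATTGG where it lies on the other strand.
Kcnq1ot1 promoter: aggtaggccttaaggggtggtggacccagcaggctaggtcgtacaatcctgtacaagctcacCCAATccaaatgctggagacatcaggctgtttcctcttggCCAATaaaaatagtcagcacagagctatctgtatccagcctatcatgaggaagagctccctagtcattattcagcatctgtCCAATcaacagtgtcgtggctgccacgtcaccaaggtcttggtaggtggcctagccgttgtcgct
Ascl2 promoter: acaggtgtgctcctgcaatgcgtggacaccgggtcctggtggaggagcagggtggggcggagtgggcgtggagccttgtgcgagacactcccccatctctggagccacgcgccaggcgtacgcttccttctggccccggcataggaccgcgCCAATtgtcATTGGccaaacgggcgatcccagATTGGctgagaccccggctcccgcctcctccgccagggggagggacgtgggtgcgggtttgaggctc

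Libraries held 6357343 to 19151368 counts, and 16784 genes passed the filter on low counts. CPM are counts scaled to the library total, here adjusted by the trimmed mean of M values (TMM). *Mir483* lay higher in each 5C library than in each WT library, at 4.02 ± 1.33 CPM (SD, n = 3) against 0.442 ± 0.129 CPM (SD, n = 3). These poly(A) libraries count longer transcripts that hold the hairpin, not the mature microRNAs. Its log2 fold change was 3.05 with an adjusted p of 0.169 in edgeR's quasi-likelihood test. Some libraries stood apart. The sum of 10 yolk sac endoderm markers was 6552 CPM in WT replicate 1, against 142 to 1263 CPM in the other libraries. The Y-linked *Ddx3y* measured 0 to 0.944 CPM in replicate 2 of both genotypes and 41.6 to 55.9 CPM in the others, although the methods name male pools, and *Xist* measured 495 to 914 CPM across all 6. The 8 markers of the embryo proper summed to 297 to 333 CPM in WT and 305 to 349 CPM in 5C.

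*Cdkn1c*, *Nap1l4*, *Cd81*, *Tssc4*, *Kcnq1ot1* and *Osbpl5* were well measured, while *Phlda2*, *Slc22a18*, *Kcnq1* and *Ascl2* were low. Together the 10 genes took 0.156% to 0.166% of all counts in a library, and *Kcnq1ot1* alone held 42.1% of the counts of the domain. Per length, as CPM per kb of annotated exon, the order was different. *Cdkn1c* was highest at 160, followed by *Nap1l4* at 119, *Cd81* at 50.4, *Tssc4* at 29.9, *Kcnq1ot1* at 7.33 and *Osbpl5* at 3.95 (means of 6 libraries). This order held in 6 of 6 libraries, and the ranges of neighbours did not overlap. Below *Osbpl5*, the ranges of *Phlda2* (mean 2.92 CPM per kb), *Slc22a18* (0.5 CPM per kb) and *Kcnq1* (0.415 CPM per kb) overlapped their neighbours in the order. *Ascl2* was lowest at 0.171 CPM per kb.

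**Figure D1:**
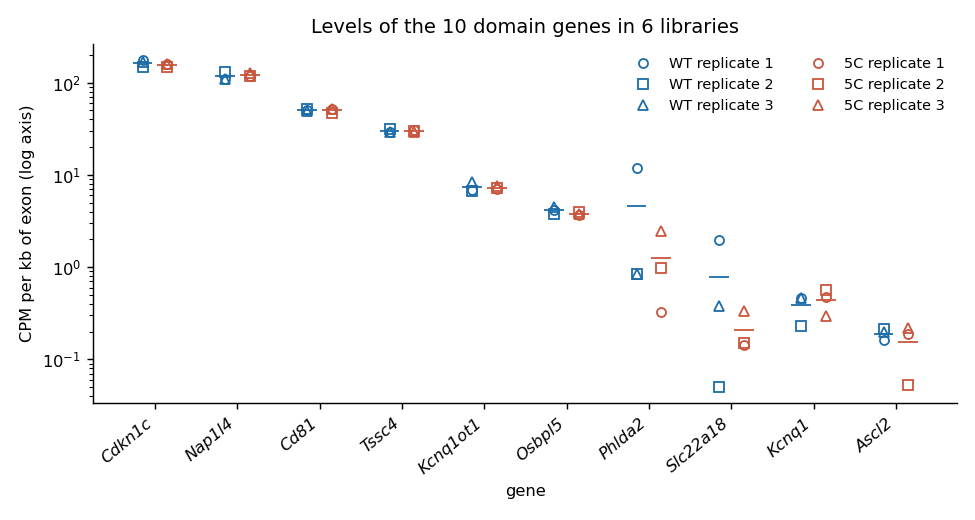
Level of each gene in each library as CPM per kb of exon on a log axis, with WT in blue, 5C in red, a symbol for each replicate number and a bar at the mean of each genotype (n = 3). The 6 leftmost genes lie within tight clusters, whereas *Phlda2* and *Slc22a18* reach their highest values in WT replicate 1.

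No gene of the domain was called different between the genotypes. A call needed a fold change above 1.5 with an adjusted p below 0.05, and 0 of the 8 genes tested passed, beside 0 of 16784 genes (0%) in the whole table. The study itself reported differentially expressed genes in these embryos at the same cut-offs, so the whole-table count of 0 differs from its result. The cause of that difference was not tested. At an unadjusted p under 0.05, 0 of 8 passed, beside 1011 genes (6.02%). In 0 of the 10 genes did the libraries separate by genotype, beside 1907 of the genes tested (11.4%). Of the 8 genes, 6 had a log2 fold change below 0 and 2 above 0, with a median of -0.02 beside -0.0024 over all genes. The median size of the log2 fold change was 0.07, beside 0.11 over all genes, which were not matched to the domain genes for expression level.

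*Kcnq1ot1* (ENSMUSG00000101609, chr7:143203458-143296549, minus strand, a single exon) is the silencing RNA of the domain. It measured 646, 631 and 788 CPM in WT replicates 1 to 3, against 649, 681 and 698 CPM in the 5C replicates. The 3 5C libraries lay inside the range of WT. WT averaged 689 ± 86.8 CPM and 5C 676 ± 24.8 CPM (SD, n = 3 each). The log2 fold change of -0.03 had a standard error of 0.09 and a 95% interval from -0.23 to 0.18, which spans folds of 0.852 to 1.13. In edgeR's quasi-likelihood test its adjusted p reached 0.966. Its start lies 641.6 kb from *Mir483*, and 1.2% of its exon bases lie under genes of the other strand, *Kcnq1* among them. Which strand column the authors counted was not stated, so reads from *Kcnq1* introns could not be told apart from *Kcnq1ot1*.

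*Cdkn1c* (ENSMUSG00000037664, chr7:143458339-143461050, minus strand) encodes p57, a cyclin-dependent kinase inhibitor that restrains embryonic growth. It measured 357, 304 and 343 CPM in the WT libraries and 323, 304 and 322 CPM in those of 5C. WT replicate 1 was highest, and replicate 2 was lowest in both genotypes. The means were 335 ± 27.4 CPM and 316 ± 10.3 CPM (SD, n = 3 each), and the log2 fold change of -0.08 ± 0.07 (SE) had a 95% interval from -0.25 to 0.09. The adjusted p came to 0.827 by edgeR's quasi-likelihood test. Of its exon bases, 30.7% lie under *Gm44732* on the other strand, which measured 2.11 ± 0.464 (WT) and 2.33 ± 0.833 CPM (5C) (SD, n = 3 each).

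*Kcnq1* (ENSMUSG00000009545, chr7:143106362-143427042, plus strand) encodes a voltage-gated potassium channel and hosts the control region. Its counts were 36, 11 and 12 in the WT libraries and 32, 27 and 17 in those of 5C, or 1.89, 0.944 and 1.91 CPM against 1.94, 2.31 and 1.21 CPM. WT replicate 2 was lowest and 5C replicate 2 highest. The log2 fold change was 0.20 ± 0.34 (SE), with an interval from -0.56 to 0.96, so that at this depth a fold between 0.677 and 1.94 was within the error. Without WT replicate 2 it was -0.07.

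The balance of the antisense RNA with its targets was compared within libraries as a log2 ratio of counts. The log2 ratio of *Kcnq1ot1* to *Cdkn1c* was 0.86, 1.05 and 1.20 in the WT libraries and 1.01, 1.16 and 1.12 in those of 5C. All 5C ratios lay inside the WT range. The difference of 0.06 had p = 0.7 in a two-sided exact permutation test of 3 against 3, which cannot go below 0.1. The log2 ratio of *Kcnq1ot1* to *Kcnq1* differed by -0.22 between 5C (8.56 ± 0.50) and WT (8.78 ± 0.48; SD, n = 3 each), with p = 0.5 in the same exact permutation test.

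*Cd81* and *Tssc4* were the steadiest genes of the domain, with coefficients of variation over the 6 libraries of 3.99% and 3.25%. *Cd81* (ENSMUSG00000037706, chr7:143052739-143067934, plus strand) encodes a tetraspanin of the cell surface. It measured 144, 151 and 141 CPM in the WT libraries and 150, 136 and 149 CPM in those of 5C, and its log2 fold change was -0.0044, the 95% interval running from -0.15 to 0.14. *Tssc4* (ENSMUSG00000045752, chr7:143069249-143071093, plus strand), whose product takes part in spliceosome assembly, measured 53.7, 58 and 53.8 CPM in the WT libraries and 56.3, 55.4 and 53.6 CPM in those of 5C. Its log2 fold change was -0.0024, with an interval from -0.16 to 0.16. Both genes crossed 0 under several alternatives, by at most 0.07 on the log2 scale. Of the exon bases, 3.61% of *Cd81* lie under *R74862* and 11.9% of *Tssc4* under *Trpm5* on the other strand.

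*Nap1l4* (ENSMUSG00000059119, chr7:143513579-143549106, minus strand) encodes a histone chaperone. It measured 341, 407 and 336 CPM in the WT libraries and 366, 369 and 394 CPM in those of 5C. The 5C values lay between the lowest and the highest WT library, and the log2 fold change was 0.06 ± 0.08 (SE) with an interval from -0.13 to 0.25. *Osbpl5* (ENSMUSG00000037606, chr7:143688762-143756985, minus strand), the gene with the miR-483-3p match shown above, encodes a lipid transfer protein. It measured 20.5, 18.6 and 21.9 CPM in the WT libraries and 17.9, 19.3 and 18.4 CPM in those of 5C. Its log2 fold change was -0.13 ± 0.10 (SE), with an interval from -0.36 to 0.10 and an adjusted p of 0.803 in edgeR's quasi-likelihood test. 5C replicate 2 lay above WT replicate 2, so the genotypes overlapped. This interval contains 0 and also a decrease to 0.778-fold.

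**Figure D2:**
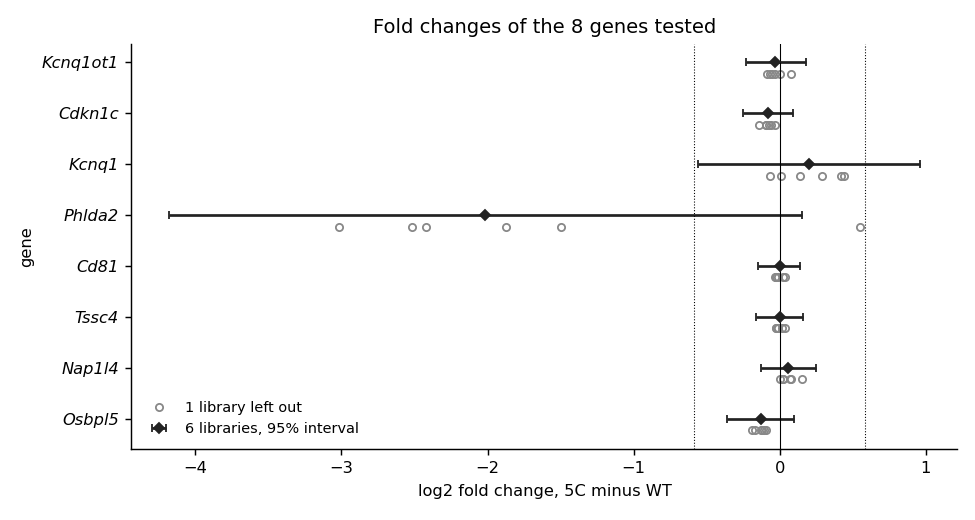
Log2 fold change of 5C over WT for the 8 genes tested, with diamonds and bars for all 6 libraries and their 95% interval, grey circles for fits that leave out 1 library, and dotted lines at a fold change of 1.5. The estimates of *Phlda2* run from -3.01 to 0.55, whereas those of *Cd81* and *Tssc4* stay within 0.04 of 0.

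*Phlda2* (ENSMUSG00000010760, chr7:143501545-143503150, minus strand) encodes a pleckstrin homology domain protein that restrains placental growth. Its counts were 257, 11 and 6 in the WT libraries and 6, 13 and 39 in those of 5C, or 13.5, 0.944 and 0.957 CPM against 0.364, 1.11 and 2.78 CPM. WT replicate 1 was 14.1 times the median of the other 5 libraries, a multiple over 10 that 0.346% of the genes tested reached. The other 2 WT libraries lay inside the range of 5C. The log2 fold change was -2.02 ± 0.96 (SE), with an interval from -4.18 to 0.15, and the adjusted p came to 0.781 in edgeR's quasi-likelihood test. Without WT replicate 1 the log2 fold change was 0.55, and without 5C replicate 3 it was -3.01.

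*Slc22a18* (ENSMUSG00000000154, chr7:143473736-143499334, plus strand), a solute carrier gene next to *Phlda2*, did not pass the filter on low counts and had no test in the main fit. Its counts were 63, 1 and 4 in the WT libraries and 4, 3 and 8 in those of 5C, or 3.31, 0.0859 and 0.638 CPM against 0.242, 0.256 and 0.569 CPM. WT replicate 1 was 12.9 times the median of the other 5 libraries. WT replicate 2 lay under its floor of 0.256 CPM, the level that 3 counts give.

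When the low-count filter was dropped, *Phlda2* and *Slc22a18* were both called lower in 5C, beside 319 of 33139 genes (0.963%). Adjusted p-values were 1.854e-11 for *Phlda2* (log2 fold change -2.00) and 0.0001243 for *Slc22a18* (log2 fold change -2.09) in edgeR's quasi-likelihood test. That fit gave *Phlda2* a quasi-likelihood dispersion of 0.626, against 8.76 with the filter. When WT replicate 1 was also left out, the log2 fold changes were 0.57 and 0.30, and neither was called.

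The 2 libraries with most *Phlda2* had the highest sums of markers of yolk sac endoderm, the outer epithelium of the yolk sac. Below them the orders differed, with 5C replicate 2 at rank 3 for *Phlda2* (1.11 CPM) and rank 5 for the markers. The sum of the 10 markers was 6552, 206 and 471 CPM in the WT libraries and 142, 142 and 1263 CPM in those of 5C. *Phlda2* was highest in WT replicate 1 and next in 5C replicate 3, as was the marker sum. *Slc22a18* was also highest in WT replicate 1, but its next library was WT replicate 3 (0.638 CPM), ahead of 5C replicate 3 (0.569 CPM). All 10 markers were highest in WT replicate 1, and within 5C all 10 were highest in replicate 3. Without these 2 libraries the log2 fold change of *Phlda2* was -0.47, with an adjusted p of 0.999 by edgeR's quasi-likelihood test. In bulk tissue, fewer cells of a type and less RNA per cell cannot be told apart.

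Markers of other tissues that could be dissected with an embryo followed this order only in part. The 10 trophoblast markers summed to 9.57 to 12.6 CPM in WT and 6.49 to 14.7 CPM in 5C. Of these markers 5 stayed under 1 CPM in all libraries, and none was at 0 throughout. The 8 markers of decidua and its killer cells summed to 15.5 to 52.6 CPM in WT and 16.3 to 58.8 CPM in 5C. Both sums were highest in 5C replicate 3. The trophoblast sum was next highest in WT replicate 1 (12.6 CPM), where *Hand1* alone gave 7.61 CPM. That second place rested on *Hand1*, which measured 5.24 CPM in WT replicate 2. The decidua sum was next highest in WT replicate 3 (52.6 CPM). The part of these tissues in the *Phlda2* and *Slc22a18* values was not tested.

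**Figure D3:**
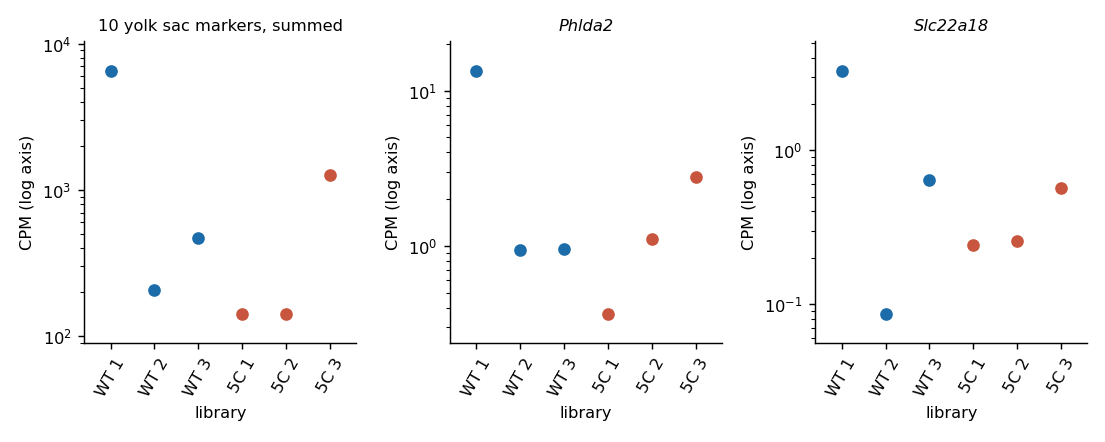
CPM on log axes in each library for the sum of 10 yolk sac endoderm markers (left), *Phlda2* (middle) and *Slc22a18* (right), with WT in blue and 5C in red. WT replicate 1 is highest in every panel, at 6552, 13.5 and 3.31 CPM.

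*Ascl2* (ENSMUSG00000009248, chr7:142966829-142969264, minus strand) encodes a basic helix-loop-helix factor needed for the spongiotrophoblast of the placenta. Its counts were 5, 4 and 2 in the WT libraries and 5, 1 and 5 in those of 5C, or 0.262, 0.343 and 0.319 CPM against 0.303, 0.0854 and 0.356 CPM. Each value lay near or under the floor of 3 counts, which ranged from 0.157 to 0.472 CPM. It was not tested in the main fit, and a difference was not detectable at this depth.

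The genes whose levels most resembled those of 3 members over the 6 libraries were then listed, among about 12031 genes with a mean of at least 5 CPM. The points share their libraries and depth, and the genes named are the highest of all those compared. An r over 0.95 was reached by 13 genes for *Kcnq1ot1*, 37 for *Cdkn1c* and 64 for *Phlda2*. The 3 most like *Kcnq1ot1* were *Gm43313* (Pearson r = 0.981), *Gpr162* (r = 0.978) and *Braf* (r = 0.973). All 3 peaked in WT replicate 3. The 3 most like *Cdkn1c* were *Loxl1* (r = 0.995), *Unc45a* (r = 0.992) and *Iqgap1* (r = 0.987). Those most like *Phlda2* were *Vamp8* (r = 0.993), *Aldh7a1* (r = 0.992) and *Cd9* (r = 0.991). The genes named for *Cdkn1c* and *Phlda2* were all highest in WT replicate 1. *Cd9* spanned 2.73 to 12.8 CPM.

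Along the chromosome, 31 tested genes had their start within 1 Mb of *Mir483*. The 4 genes within 100 kb included 3 at an unadjusted p under 0.05 (*Mir483*, *Igf2os* and *H19*), beside 6.02% of all genes tested. *Mir483* is the gene that the 5C array itself adds. Of the 15 genes more than 100 kb away on the *Kcnq1* side, 0 had an unadjusted p under 0.05, and 9 had a log2 fold change below 0, *Cd81* (-0.0044) and *Tssc4* (-0.0024) among them. *Igf2os*, antisense to *Igf2*, measured 34.3 ± 4.67 (WT) and 23.1 ± 0.435 CPM (5C) (SD, n = 3 each). The difference was -0.57 on the log2 scale, at an adjusted p of 0.781 by edgeR's quasi-likelihood test. *H19*, the maternal noncoding RNA, measured 4565 ± 424 CPM and 3773 ± 648 CPM, a log2 fold change of -0.27 with the same adjusted p of 0.781. *Igf2* measured 14.1 ± 4.95 CPM and 10.1 ± 0.366 CPM (log2 fold change -0.48), but its exons overlap another gene model, *Gm49394*, on the same strand, so its count is uncertain. Between *Igf2* and *Osbpl5*, *Th* (log2 fold change 0.13), *Tspan32* (0.28), *R74862* (0.12), *Gm44732* (0.20), *Gm23297* (-0.51), *Cars* (-0.09), *Tnfrsf26* (-0.13) and *Tnfrsf22* (-0.09) had adjusted p-values of 0.803 or more in edgeR's quasi-likelihood test.

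**Figure D4:**
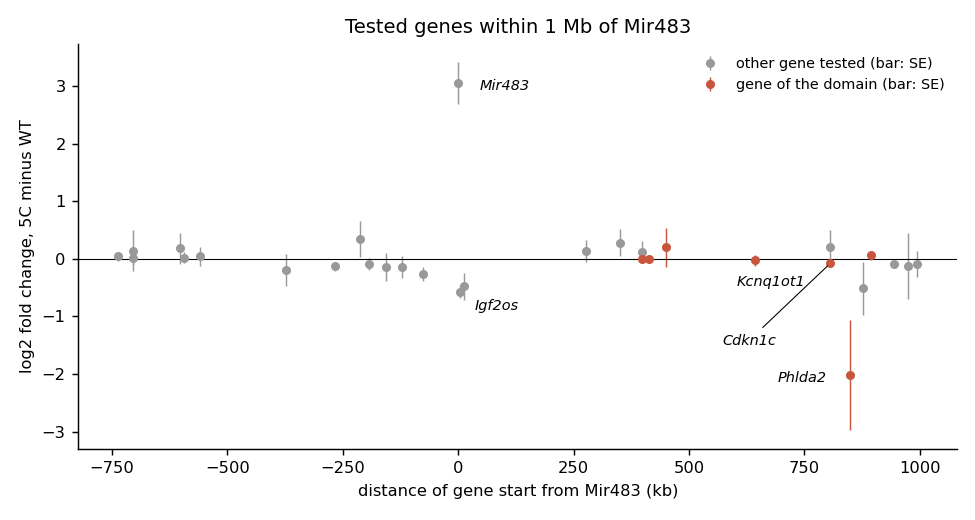
Log2 fold change of 5C over WT (points, bars are standard errors) against the distance of the gene start from *Mir483* in kb, for the 31 tested genes within 1 Mb, with genes of the domain in red. *Mir483* stands at 3.05 and *Phlda2* at -2.02, and most other genes lie close to 0.

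The machinery around the domain was described from fixed lists, none of which held a called gene. In each list the count at an unadjusted p under 0.05 is set beside 6.02% of all genes tested. Among factors that act in *Kcnq1ot1* silencing or in imprint upkeep, 0 of 14 tested genes had an unadjusted p under 0.05, and the median log2 fold change was -0.01. The smallest p-values belonged to the Polycomb subunit *Suz12*, at a log2 fold change of 0.16 with means of 195 ± 8.89 (WT) and 218 ± 15.7 CPM (5C), and to *Uhrf1*, which recruits the maintenance DNA methyltransferase, at -0.22 with 310 ± 42.1 CPM and 266 ± 23.7 CPM. Of the other genes of the domain and its edge, 0 of 7 tested had an unadjusted p under 0.05, *Nadsyn1* (-0.17) and *Cars* (-0.09) having the smallest.

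Over all genes tested, 6.02% had an unadjusted p under 0.05. Among the relatives of *Cdkn1c* and the cyclins and kinases they bind, 2 of 13 had such a p. Both were lower in 5C, and the median of the list was -0.01. These were the G1 cyclins *Ccnd2*, at 956 ± 101 (WT) and 837 ± 19.9 CPM (5C) (log2 fold change -0.19), and *Ccne1*, at 96.2 ± 9.64 CPM and 84.2 ± 3.39 CPM (-0.19), each with an adjusted p of 0.781 in edgeR's quasi-likelihood test. The inhibitors *Cdkn1a* and *Cdkn1b* had log2 fold changes of -0.10 and 0.11. Of the potassium channel partners of *Kcnq1*, 0 of 8 tested had an unadjusted p under 0.05. The accessory subunit *Kcne3* had the smallest, at a log2 fold change of 0.41.

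Of the tetraspanins and partners of *Cd81*, 9 of 9 had a log2 fold change below 0, with a median of -0.15. An unadjusted p under 0.05 was found in 1 of 9, *Ptgfrn* (134 ± 3 (WT) and 121 ± 5.43 CPM (5C)), beside 6.02% of all genes tested. WT replicate 1, the library richest in yolk sac markers, was the highest of the 6 libraries for 7 of these 9 genes, among them *Cd9* at 12.8 CPM. Its part in the shared sign was not tested. Of the paralogs of domain genes, 2 of 9 had an unadjusted p under 0.05, beside 6.02% of all genes tested. Both were higher in 5C. These were *Nap1l5*, an imprinted relative of *Nap1l4* (3.41 ± 0.186 CPM and 4.95 ± 0.722 CPM, log2 fold change 0.53), and *Osbpl1a*, a relative of *Osbpl5* (55.3 ± 0.235 CPM and 62.2 ± 2.47 CPM, 0.17).

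Of the *Igf2* and *H19* list, 3 of 9 tested genes had an unadjusted p under 0.05, beside 6.02% of all genes tested. Of these, 2 were lower (*H19* and *Igf2os*) and 1 was higher. The higher gene was *Mir483*, which the 5C array itself adds. In the marker lists the counts at an unadjusted p under 0.05 were 1 of 10 for yolk sac endoderm (*Amn*, log2 fold change -2.33), 1 of 3 for trophoblast (*Hand1*, -0.47), 3 of 6 for decidua and its killer cells (*Gzmg*, 2.24, *Gzmc*, 2.03, and *Gzmf*, 1.63), 0 of 4 for embryonic blood and 1 of 8 for the embryo proper (*Sox2*, 0.25). The other trophoblast genes tested were higher in 5C (*Prl3d1*, 1.07, and *Plac1*, 0.19). In embryonic blood *Hba-a1* (0.14) and *Hbb-y* (0.12) had the smallest p-values. The median was -2.24 for yolk sac endoderm and 0.10 for embryonic blood.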

How the data were processed

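Whole-embryo RNA-seq at E10.5 was analysed in 3 WT and 3 5C libraries, with genotype and replicate taken from the sample titles. Per the study's methods the authors made poly(A)-selected stranded libraries, mapped single-end reads to GRCm38 by STAR using Ensembl genes, and deposited raw counts per gene, neither normalized nor filtered. STAR's gene counting drops reads under exons of more than 1 gene, and the strand column was not given in the sources used here.

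Depth was 6357343 to 19151368 counts per library, and 3 counts equalled 0.157 to 0.472 CPM. Floors cover counting error only. No libraries agreed within sampling noise (chi-square per gene at least 5.26).

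The counts were tested with edgeR 4.0.16 in R 4.3.3 (filterByExpr, TMM, legacy quasi-likelihood F-test, two-sided, Benjamini-Hochberg over 16784 genes). Calls required a fold change above 1.5 with an adjusted p below 0.05. The biological coefficient of variation was 13.6%. P-values measure the spread between pools of embryos. The log2 ratios added 0.5 counts to each gene and were compared by exact permutation. The steps were tested on simulated data. Positions, exon lengths and 3′ UTRs came from a GENCODE annotation of GRCm38, which held 55141 of the 55401 identifiers. Identifiers not found held 0.0886% of counts.

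The genes and lists were chosen with earlier results of these data known. Named were the 10 genes, *Mir483*, *Igf2*, *H19*, *Igf2os*, tested genes between *Igf2* and *Osbpl5*, members of each list at an unadjusted p under 0.05 or otherwise the 2 with the smallest p, and the 3 genes most like *Kcnq1ot1*, *Cdkn1c* and *Phlda2*. A gene that this rule names is not reported here. Any other gene was picked with its values in view. The alternatives covered scalings, filters and tests (DESeq2 1.42.0, limma-voom with limma 3.58.1), GC-content offsets, the replicate block and each library left out.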

Additional observations from a re-analysis of the deposited data

How the results depend on the processing

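Of 159 log2 fold changes of domain genes under 20 alternatives, 136 kept their direction and their side of the threshold, 1 gained a call and 22 changed sign. The 22 were values near 0, apart from *Kcnq1* and from *Phlda2* in fits without WT replicate 1. The 6 genes with a mean of at least 5 CPM stayed between -0.22 and 0.17 in all fits. The genes called over the whole table were 319 without a count filter, 117 without a filter and without WT replicate 1, 11 with DESeq2, 3 with robust moderation and 2 without the libraries richest in yolk sac markers. Without a filter, 2 domain genes were called and 2 had an unadjusted p under 0.05, beside 6.55% of all genes in that fit. *Phlda2* was called without the filter (adjusted p = 1.854e-11) but had an adjusted p of 0.4476 to 1 in the other fits that kept WT replicate 1. The quasi-likelihood prior degrees of freedom were 5.52 with the filter and infinite without it.

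Leaving out each library gave 0 to 1 genes called and 0 to 2 domain genes at an unadjusted p under 0.05 (*Phlda2* and *Nap1l4* without WT replicate 2, and *Phlda2* without WT replicate 3 or 5C replicate 3). In the same fits 2.62% to 10.4% of all genes had such a p, the highest share being that without WT replicate 2. The log2 fold change ranged from -0.0836 to 0.0752 for *Kcnq1ot1*, -0.0696 to 0.44 for *Kcnq1*, -3.01 to 0.55 for *Phlda2*, -0.0313 to 0.0335 for *Cd81* and -0.0255 to 0.037 for *Tssc4*. The sign held in all these fits for *Cdkn1c* (-0.1448 to -0.0301), *Osbpl5* (-0.1891 to -0.0911) and *Nap1l4* (0.0046 to 0.1554). The *Kcnq1ot1* to *Cdkn1c* log2 ratio differed by -0.0317 (without WT replicate 1) to 0.14, and the *Kcnq1ot1* to *Kcnq1* ratio by -0.51 to 0.0457 (without WT replicate 2).

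*Cd81* and *Tssc4* turned positive with library size alone (0.012 and 0.0143), without a filter (0.0092 and 0.0107), with GC-content offsets (0.0196 and 0.0489), with the replicate block and these offsets (0.0189 and 0.0496) and without the libraries with few Y-linked reads (0.0663 and 0.0316). In that last fit *Kcnq1* was -0.26. Without the libraries richest in yolk sac markers *Nap1l4* was -0.0155. Without a filter and WT replicate 1, *Phlda2* was 0.57 and *Cd81* 0.0082. The cause of these changes was not tested.

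Deviations of libraries with the same replicate number correlated by -0.174 to 0.202. With 3 libraries per genotype these values cannot settle whether replicate numbers pair the samples. *Ddx3y* was low in replicate 2 of both genotypes (0 to 0.944 CPM). With the replicate block 0 genes were called and *Phlda2* had a log2 fold change of -1.40. Fits without the 2 libraries of either kind, and the fit without a filter and WT replicate 1, were chosen after the data were seen. The low counts of *Kcnq1*, *Slc22a18* and *Ascl2* limit what these libraries can show of them.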
